A study of Mus musculus with 9 samples.

Results

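The SLC25 genes encode the mitochondrial carriers, and 46 of the 18049 genes in the deposited table belong to the set described here. Its members were all genes whose symbol is Slc25a followed by a number, apart from the carnitine carrier gene Slc25a20, which was left out. RNA came from bone marrow-derived macrophages of C57BL/6 mice aged 8 weeks, grown in RPMI medium and given 1 µM 15d-PGJ2-PC, 1 µM 15d-PGJ2 or medium alone (control) for 6 h. Each of the 3 groups has 3 libraries, and every library comes from the same strain, age and culture medium. 15d-PGJ2 is a prostaglandin with reactive electrophilic carbons, known to bind PPARγ and to activate Nrf2. What PC stands for is not in the labels, and the structure of 15d-PGJ2-PC is therefore not described. The labels do not say whether the 3 libraries of a group are separate cultures or animals, so the p-values measure the spread between libraries, which may be technical.

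Mitochondrial carriers are small proteins built from repeated pairs of membrane helices, and most of them exchange a solute in the matrix for another outside the inner membrane. They move ADP and ATP, phosphate, pyrimidine nucleotides, amino acids, di- and tricarboxylates, cofactors, iron and glutathione. In macrophages, export of citrate and exchange of malate, oxoglutarate and aspartate link the tricarboxylic acid cycle to cytosolic synthesis and redox balance, and iron and glycine import feed heme synthesis. A few members lie elsewhere: the Slc25a17 protein is in the peroxisome and the Slc25a46 protein in the outer mitochondrial membrane.

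Depth was estimated once for all 9 libraries, at about 5.42 M reads per library, from what 1 read is worth in FPKM for 65 genes of known length. The 95% interval of the median over these genes was 5.38 M to 5.46 M. This estimate takes the libraries as equally deep, and no library was measured on its own. Each library held 14459 to 15277 genes above 0. Macrophage markers summed to 5859 to 6037 FPKM with 15d-PGJ2-PC, 5004 to 5368 FPKM with 15d-PGJ2 and 6558 to 6751 FPKM in controls, led by the lysozyme gene Lyz2. Markers of other cell types were lower in level. Erythroid markers (11 of 12 listed) summed to 1.19 to 1.65 FPKM with 15d-PGJ2-PC, 1.51 to 1.67 FPKM with 15d-PGJ2 and 24.6 to 34.2 FPKM in controls. Keratinocyte markers (8 of 8 listed) summed to 2.98 to 4.98 FPKM with 15d-PGJ2-PC, 4.52 to 6.52 FPKM with 15d-PGJ2 and 24.3 to 29.1 FPKM in controls. Stromal markers (8 of 8 listed) summed to 8.17 to 8.79 FPKM with 15d-PGJ2-PC, 8.71 to 11.3 FPKM with 15d-PGJ2 and 37.8 to 44.4 FPKM in controls. Neutrophil markers (7 of 7 listed) summed to 24.3 to 29.6 FPKM with 15d-PGJ2-PC, 15.9 to 19.8 FPKM with 15d-PGJ2 and 32.1 to 34.5 FPKM in controls. By these sums the controls thus held the most RNA of all 5 of these marker lists, and its part in the carrier results was not tested. Not every marker followed its sum. The neutrophil gene Mpo was at 1.68 to 2.38 FPKM with 15d-PGJ2-PC, 1.33 to 2.26 FPKM with 15d-PGJ2 and 0.07 to 0.14 FPKM in controls. The keratinocyte gene Sfn was at 2.24 to 3.61, 3.82 to 5.75 and 3.02 to 3.48 FPKM in the same order. The other tested markers of these lists, 3 and 5, fell with 15d-PGJ2. In such bulk RNA, fewer cells of a type and less RNA per cell cannot be told apart.

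The carriers spanned a wide range of levels in these macrophages. Slc25a5, which encodes ADP/ATP translocase 2, was the most abundant transcript of the set per unit length, ahead of the phosphate carrier gene Slc25a3. Slc25a5 had 210.5, 196 and 200.3 FPKM in the 15d-PGJ2-PC libraries, 206, 191 and 197 FPKM in the 15d-PGJ2 libraries and 226, 232 and 220.3 FPKM in the controls. Slc25a3 had 189, 203 and 192 FPKM in the 15d-PGJ2-PC libraries, 186, 198 and 203 FPKM in the 15d-PGJ2 libraries and 188, 186 and 184 FPKM in the controls. The order of these 2 genes held in every library except 15d-PGJ2 replicates 2 and 3 and 15d-PGJ2-PC replicate 2, where Slc25a3 was the higher. Their levels were thus set apart in the controls and overlapped within each treated group. The glutathione carrier gene Slc25a39, at a mean of 99.6 FPKM over the 9 libraries, and Slc25a4, which encodes ADP/ATP translocase 1, at 96.0 FPKM, followed. Their order differed by group. Slc25a39 was the higher in every 15d-PGJ2 library and Slc25a4 in every control, and their levels overlapped with 15d-PGJ2-PC. Slc25a3, Slc25a4 and Slc25a5 together made up 47.1% to 47.8% of the summed carrier FPKM with 15d-PGJ2-PC, 45.9% to 47.1% with 15d-PGJ2 and 47.7% to 49.4% in controls.

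**Figure D1:**
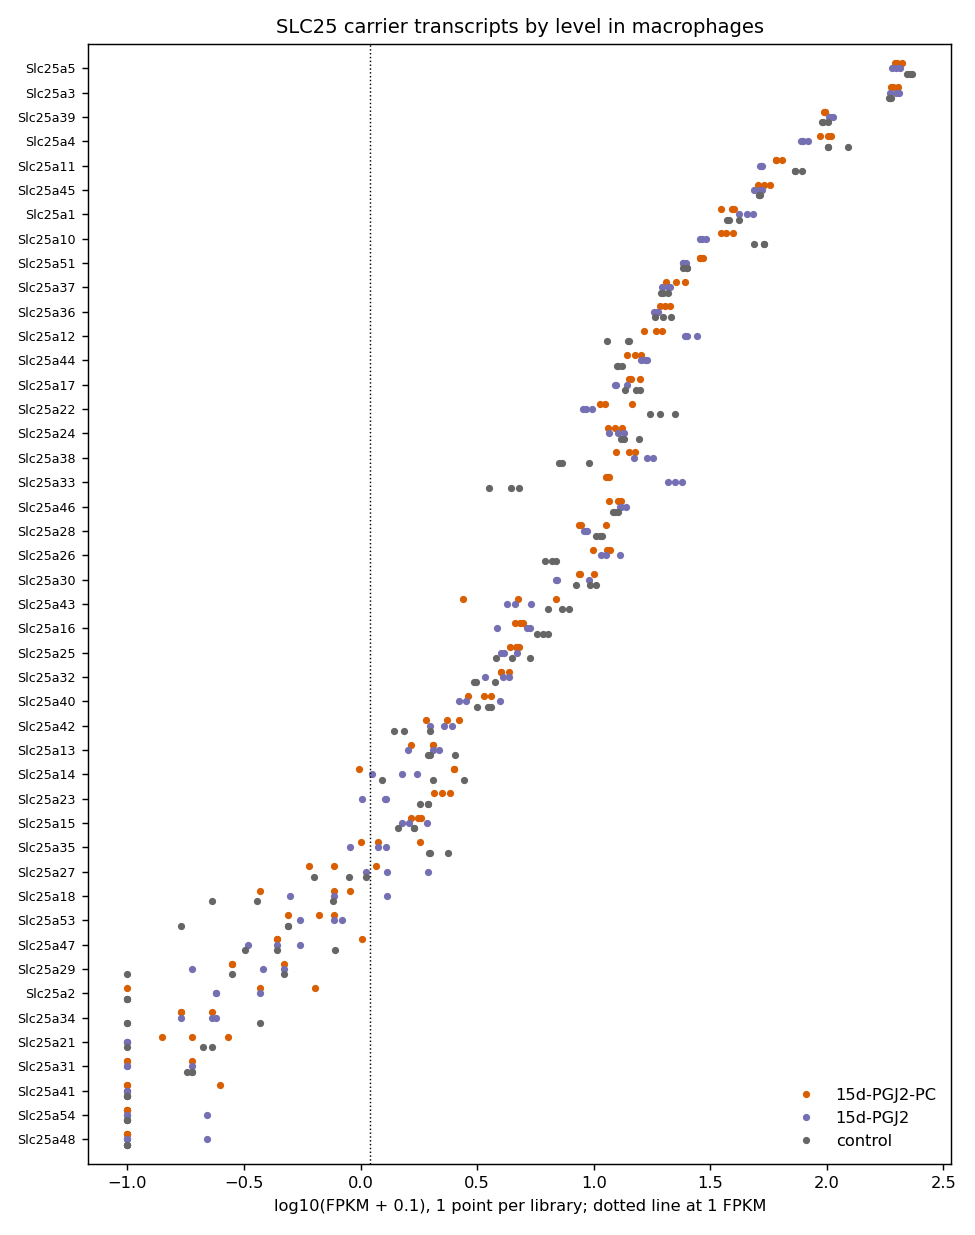
Level of 45 carrier transcripts on a log10(FPKM + 0.1) axis, with 1 point per library coloured by group and genes ordered by their mean over the 9 libraries. Slc25a5 and Slc25a3 lead at the top of the plot, the dotted line marks 1 FPKM, and the 3 groups of Slc25a33 stand apart from each other.

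Of the 46 members, 35 reached 1 FPKM in at least 3 of the 9 libraries and were tested, and 31 of those reached it in every library. The other 11 were at or below 1.20 FPKM in every library: Slc25a18, Slc25a53, Slc25a47, Slc25a29, Slc25a2, Slc25a34, Slc25a21, Slc25a31, Slc25a41, Slc25a48 and Slc25a54. Among them are carrier genes for glutamate (Slc25a18), basic amino acids (Slc25a29), oxodicarboxylates (Slc25a21) and ATP-Mg (Slc25a41). They also include the testis translocase gene Slc25a31, at 0 to 0.09 FPKM in treated libraries and 0.08 to 0.09 FPKM in controls, and the second ornithine carrier gene Slc25a2, at 0 to 0.54 FPKM in treated libraries and listed at 0 in the 3 controls. Differences between groups were not tested for these genes. Slc25a27 had the fewest libraries at 1 FPKM among tested members (3 of 9), and no tested member reached it in a single group only. Summed over all 46 members, carrier RNA was 1032.8 to 1056.6 FPKM with 15d-PGJ2-PC, 1012.6 to 1033.4 FPKM with 15d-PGJ2 and 1060.5 to 1088.7 FPKM in controls. As a share of all FPKM this was 0.215% to 0.219% with 15d-PGJ2-PC, 0.206% to 0.210% with 15d-PGJ2 and 0.225% to 0.226% in controls.

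With 15d-PGJ2, Slc25a33, Slc25a38, Slc25a12, Slc25a26, Slc25a44 and Slc25a1 rose, and Slc25a22, Slc25a10, Slc25a35, Slc25a11, Slc25a4, Slc25a23, Slc25a16 and Slc25a5 fell, against control. These 14 of 35 tested members, 40%, stand beside 47.2% of all 11309 tested genes, by limma's moderated test on log2(FPKM + 1) with Benjamini-Hochberg adjustment over all tested genes and a threshold of 0.05. The 6 that rose compare with 22.2% of all tested genes rising, and the 8 that fell with 25% falling. The median log2 fold change was -0.09 over the members and -0.02 over all tested genes. The libraries of the 2 groups did not overlap for 18 members (51.4%), against 55.1% of all tested genes.

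With 15d-PGJ2-PC, 6 members rose (Slc25a33, Slc25a38, Slc25a26, Slc25a12, Slc25a51 and Slc25a44) and 4 fell (Slc25a22, Slc25a10, Slc25a11 and Slc25a5) against the same controls, 28.6% of the 35 tested, beside 27.8% of all tested genes. The median log2 fold change was 0.00 over the members and 0.00 over all tested genes. Groups did not overlap for 15 members (42.9%), against 41.8% of all tested genes. In total 15 members were called in at least 1 of the 3 contrasts and 20 in none. Against control, the share of members called was near or below that of all genes for both compounds.

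**Figure D2:**
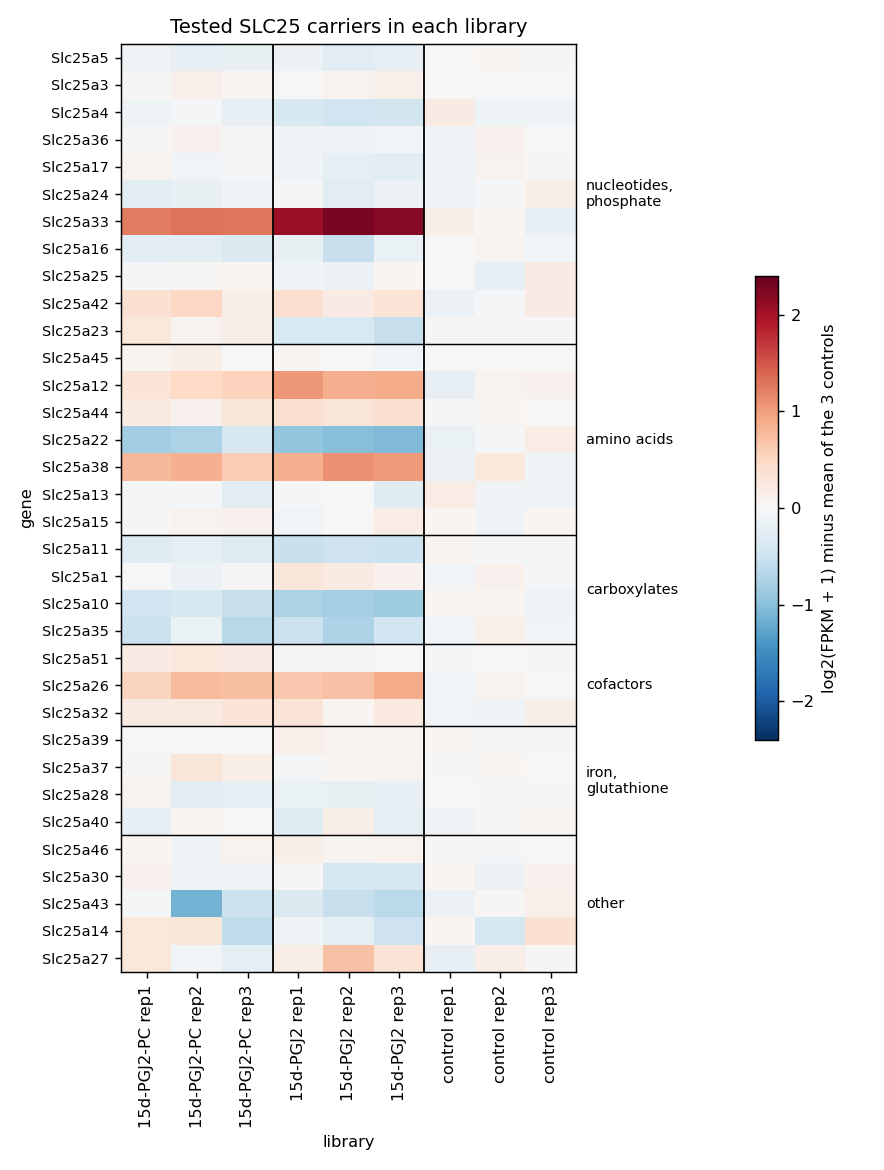
Difference of each library from the mean of the 3 controls on the log2(FPKM + 1) scale, for 34 tested carriers in rows grouped by what they carry and the 9 libraries in columns. Slc25a33, Slc25a38, Slc25a12 and Slc25a26 are red in all 6 treated libraries, and Slc25a22, Slc25a10 and Slc25a11 are blue in all 6.

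Among the 12 tested carriers of nucleotides, phosphate and related cofactors, Slc25a33 was the member of the whole set with the largest change. It encodes a pyrimidine nucleotide carrier that supplies the matrix with nucleotides for mitochondrial DNA and RNA synthesis. Slc25a33 had 11.2, 11.6 and 11.4 FPKM in the 15d-PGJ2-PC libraries, 20.6, 23.9 and 22.2 FPKM in the 15d-PGJ2 libraries and 4.67, 4.32 and 3.47 FPKM in the controls. The 3 groups did not overlap, with 15d-PGJ2 highest and control lowest. The means were 11.4 ± 0.212 FPKM with 15d-PGJ2-PC, 22.2 ± 1.61 FPKM with 15d-PGJ2 and 4.15 ± 0.617 FPKM in controls (SD, n = 3 each), from about 116, 227 and 42 reads per library. The ratio of means to control was 2.74 with 15d-PGJ2-PC and 5.35 with 15d-PGJ2. For 15d-PGJ2 against control the log2 fold change was 2.18 (SE 0.09, adjusted p = 2.08e-08), which placed it at rank 84 of 11309 genes by size. For 15d-PGJ2-PC against control it was 1.27 (SE 0.09, adjusted p = 3.91e-06). A pseudocount of 5 gave 0.84 for that last value.

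Slc25a33 lies on GRCm38 chromosome 4, 149744036 to 149774267, on the minus strand, and its exons overlap those of the opposite-strand gene model Gm13068 by up to 281 bases. The counting was not stated to use strand, so reads of the 2 genes cannot be told apart there. The promoter windows below, from 250 bases before to 50 after the start site (RefSeq, GRCm38.p6, 5′ to 3′ on the gene's strand), are shown for 3 carriers that rose and 1 that fell with 15d-PGJ2. They were searched on both strands for the core of the antioxidant response element, the binding motif of Nrf2, written TGACNNNGC, and a match is in capitals.
Slc25a33 (chr4:149774218-149774517, minus strand): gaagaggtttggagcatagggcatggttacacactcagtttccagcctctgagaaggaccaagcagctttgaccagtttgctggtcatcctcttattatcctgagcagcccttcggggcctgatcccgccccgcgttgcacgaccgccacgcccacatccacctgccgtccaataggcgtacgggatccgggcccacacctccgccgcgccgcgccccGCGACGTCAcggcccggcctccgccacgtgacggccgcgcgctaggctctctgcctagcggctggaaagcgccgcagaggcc
Slc25a38 (chr9:120110132-120110431, plus strand): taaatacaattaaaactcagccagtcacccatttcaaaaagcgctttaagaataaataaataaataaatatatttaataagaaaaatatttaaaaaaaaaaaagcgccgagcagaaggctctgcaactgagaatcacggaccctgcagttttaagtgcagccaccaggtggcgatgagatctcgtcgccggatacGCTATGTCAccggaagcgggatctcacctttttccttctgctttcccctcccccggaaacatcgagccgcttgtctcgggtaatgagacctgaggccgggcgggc
Slc25a12 (chr2:71367706-71368005, minus strand): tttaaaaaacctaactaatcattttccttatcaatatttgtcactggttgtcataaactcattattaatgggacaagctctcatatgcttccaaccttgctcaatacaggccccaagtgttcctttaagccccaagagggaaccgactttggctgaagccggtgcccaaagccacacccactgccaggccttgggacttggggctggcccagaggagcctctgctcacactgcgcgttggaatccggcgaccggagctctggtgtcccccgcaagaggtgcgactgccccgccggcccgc
Slc25a10 (chr11:120491587-120491886, plus strand): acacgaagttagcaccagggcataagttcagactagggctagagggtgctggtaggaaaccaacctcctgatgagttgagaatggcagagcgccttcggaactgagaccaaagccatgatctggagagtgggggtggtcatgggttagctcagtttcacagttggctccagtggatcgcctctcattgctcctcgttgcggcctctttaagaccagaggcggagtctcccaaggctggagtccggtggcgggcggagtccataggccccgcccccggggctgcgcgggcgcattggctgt

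The Slc25a33 window holds 1 match, from 32 to 24 bases before the start site, and the Slc25a38 window holds 1, from 55 to 47 bases before it, each in reverse orientation. The Slc25a12 and Slc25a10 windows hold none of these letters. At least 1 window was found for 26 of the 35 tested members, and 8 of the 26 (30.8%) hold a match in at least 1 window, beside 17.2% of the 9022 tested genes with a window and 14% of all 27025 genes with one. Of those 8, Slc25a33 and Slc25a38 rose with 15d-PGJ2, Slc25a5 and Slc25a23 fell, and Slc25a3, Slc25a14, Slc25a25 and Slc25a40 did not pass. The heat shock element (alternating GAA and TTC units), the NRF1 site and the CHOP-ATF element (TGATGNAA) were in no window of these 26 members, beside 0.632%, 2.47% and 2.83% of the tested genes with a window. The median share of G and C bases was 59.7% in the 45 windows of SLC25 members and 52.7% over all 32851 windows. The part of base composition in the matches was not tested. A match is a description of the letters and not of binding.

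The second pyrimidine nucleotide carrier gene, Slc25a36, did not pass in any contrast. Slc25a36 had 20.2, 21.2 and 19.1 FPKM in the 15d-PGJ2-PC libraries, 17.96, 18.5 and 18.8 FPKM in the 15d-PGJ2 libraries and 18.2, 21.3 and 19.7 FPKM in the controls. Slc25a33 was thus above Slc25a36 in every 15d-PGJ2 library and below it in every other library. On the log2(FPKM + 1) scale, Slc25a33 minus Slc25a36 was -0.77 ± 0.07 with 15d-PGJ2-PC, 0.26 ± 0.08 with 15d-PGJ2 and -2.01 ± 0.23 in controls (SD, n = 3 each). The difference between 15d-PGJ2 and control was 2.27 with no overlap (exact permutation p = 0.1, the smallest that 3 against 3 libraries allow, adjusted p = 0.194 over 33 tests of 11 pairs). The 15d-PGJ2-PC libraries were apart from both other groups (exact permutation p = 0.1 each).

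The translocase genes fell more modestly. Slc25a4 had 101, 105 and 93.6 FPKM in the 15d-PGJ2-PC libraries, 82.5, 77.4 and 79.2 FPKM in the 15d-PGJ2 libraries and 123, 101 and 101 FPKM in the controls. The 15d-PGJ2 libraries lay below all others, while the 15d-PGJ2-PC and control libraries overlapped. The log2 fold change of Slc25a4 was -0.43 (SE 0.07, adjusted p = 0.000668) for 15d-PGJ2 against control and -0.12 (SE 0.07, adjusted p = 0.278) for 15d-PGJ2-PC against control, which did not pass. Control replicate 1 was the highest library, and without it the 15d-PGJ2 value was -0.34 (adjusted p = 0.000649, range 0.000447 to 0.00365 over the alternatives). Slc25a4 is also a muscle gene. The muscle actin gene Acta1 was listed at 0 in all 6 treated libraries and at 1.06 to 1.23 FPKM in controls. The other tested muscle markers did not fall with 15d-PGJ2. Eno3 rose by 0.47 (SE 0.11, adjusted p = 0.00372) and Mylpf, at 0.40 (SE 0.27, adjusted p = 0.26), did not pass. With 15d-PGJ2-PC neither passed (0.17, adjusted p = 0.266, and -0.26, adjusted p = 0.535). Skeletal muscle markers summed to 4.13 to 5.64 FPKM with 15d-PGJ2-PC, 6.84 to 7.42 FPKM with 15d-PGJ2 and 6.08 to 7.02 FPKM in controls. The part of muscle RNA in the Slc25a4 values was not tested.

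Slc25a5, whose values are given above, fell by 0.19 log2 units with 15d-PGJ2 (SE 0.04, adjusted p = 0.0024) and by 0.16 with 15d-PGJ2-PC (SE 0.04, adjusted p = 0.0121), with every treated library below every control. Of the 50-base stretches of its longest transcript, 46.6% also occur in transcripts of 9 other genes, so its level is uncertain. The same share was 11.8% for Slc25a36, 10.3% for Slc25a40, 8.1% for Slc25a37 and 3.9% for Slc25a3. The 15d-PGJ2-PC call was lost without limma's trend of variance on level (adjusted p = 0.0576), without control replicate 2 (0.0511) and without 15d-PGJ2-PC replicate 2 (0.0516, range 0.00868 to 0.0576 over the alternatives). The phosphate carrier gene Slc25a3 changed by 0.07 (SE 0.04, adjusted p = 0.16) with 15d-PGJ2 and 0.06 (SE 0.04, adjusted p = 0.281) with 15d-PGJ2-PC and passed in neither. For 15d-PGJ2 it passed without 15d-PGJ2 replicate 1 (0.0458, range 0.0458 to 0.43).

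Slc25a23, which encodes a calcium-regulated ATP-Mg/phosphate carrier, was expressed at a low level. Slc25a23 had 2.33, 1.97 and 2.13 FPKM in the 15d-PGJ2-PC libraries, 1.17, 1.18 and 0.910 FPKM in the 15d-PGJ2 libraries and 1.84, 1.85 and 1.70 FPKM in the controls. The 15d-PGJ2 libraries were the lowest, and the 15d-PGJ2-PC libraries lay just above the controls. Slc25a23 fell with 15d-PGJ2 by 0.42 log2 units (SE 0.12, adjusted p = 0.0121) and with 15d-PGJ2-PC the value was 0.17 (SE 0.12, adjusted p = 0.331), which did not pass. These rest on about 39, 20 and 33 reads per library with 15d-PGJ2-PC, 15d-PGJ2 and in controls, and the 15d-PGJ2 value ran from -0.68 to -0.16 with pseudocounts of 0.1 and 5. Its exons overlap the opposite-strand gene model Gm17168 by up to 142 bases.

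The related ATP-Mg/phosphate carrier genes Slc25a24 (11.4 to 15.5 FPKM over the 9 libraries) and Slc25a25 (3.70 to 5.22 FPKM) did not pass in any contrast. Slc25a16, a carrier gene first known from an autoantigen in Graves disease, had 5.09, 3.75 and 5.22 FPKM with 15d-PGJ2 and 5.94, 6.26 and 5.60 FPKM in controls, without overlap. It fell by 0.30 log2 units (SE 0.11, adjusted p = 0.0482), a call that sat at the threshold. It was lost without any single control (adjusted p = 0.0993, 0.134 and 0.0619 without replicates 1, 2 and 3), without 15d-PGJ2 replicate 2 (0.164, log2 fold change -0.17), without any single 15d-PGJ2-PC library (0.0609, 0.0626 and 0.0594) and with no filter (0.0883), a 5 FPKM filter (0.0517), median scaling (0.0514), the replicate number as a block (0.0684) or the 6 libraries of the contrast alone (0.0775, range 0.0336 to 0.164). With 15d-PGJ2-PC it was at 4.85, 4.75 and 4.48 FPKM and did not pass (adjusted p = 0.0828), though it did on the 6 libraries of the contrast alone (0.039) and without 15d-PGJ2 replicate 2 (0.0281, range 0.0281 to 0.208). The coenzyme A carrier gene Slc25a42 (1.29 to 2.55 FPKM) and the peroxisomal Slc25a17 (12.2 to 15.8 FPKM) did not pass. For 15d-PGJ2 against control, Slc25a42 passed without control replicate 3 (0.0477, range 0.0477 to 0.233) and Slc25a17 without control replicate 1 (0.0327) or 15d-PGJ2 replicate 1 (0.0357, range 0.0327 to 0.2).

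**Figure D3:**
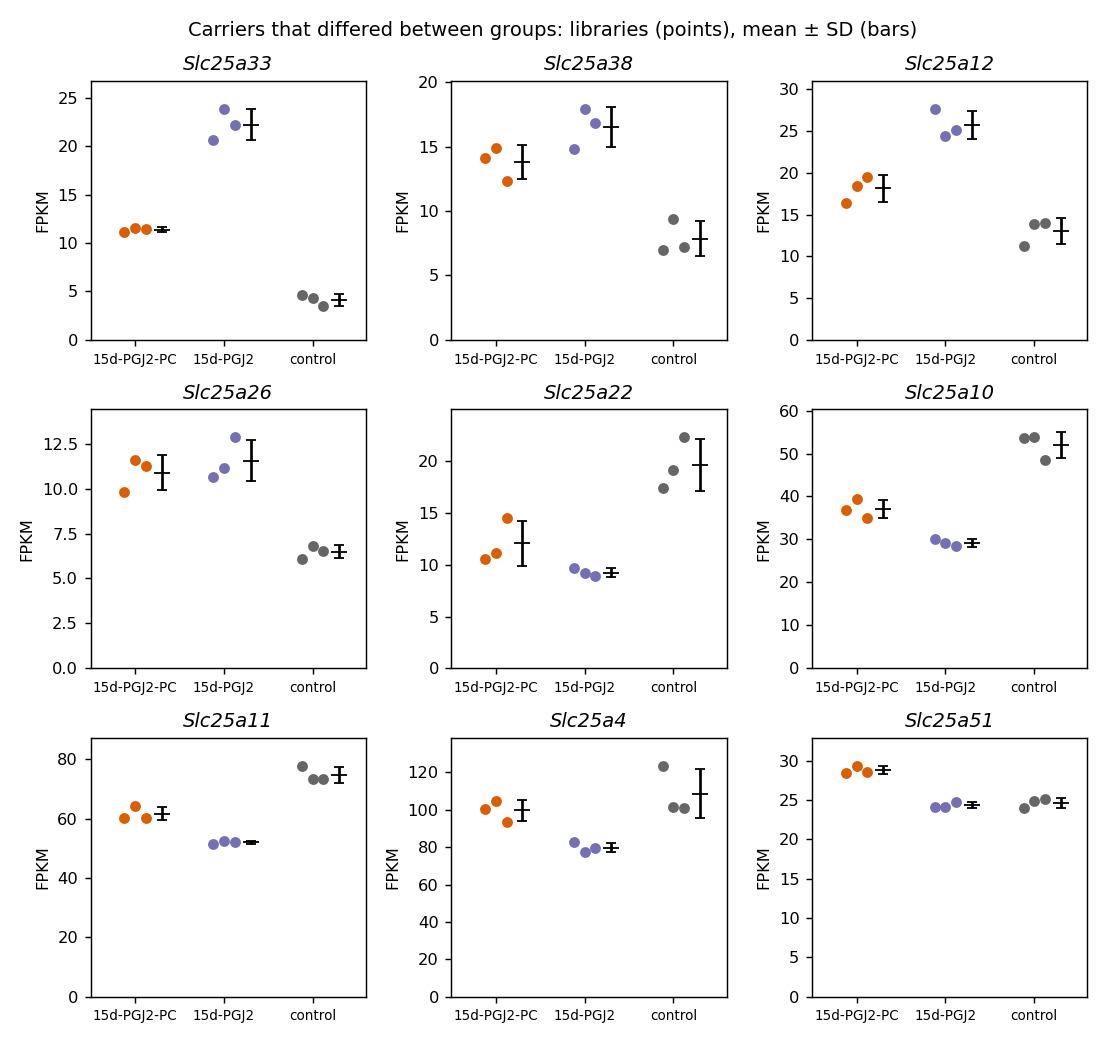
FPKM in each library for 9 carriers, with 15d-PGJ2-PC, 15d-PGJ2 and control from left to right in every panel, points for libraries and bars for the mean ± SD of 3 libraries on axes that start at 0. Slc25a33, Slc25a38, Slc25a12 and Slc25a26 are lowest in controls, Slc25a22, Slc25a10 and Slc25a11 are highest there, Slc25a4 is lowest with 15d-PGJ2 and Slc25a51 is highest with 15d-PGJ2-PC.

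Of the 7 tested amino acid carriers, 3 rose and 1 fell with each compound (57.1%, beside 47.2% of all tested genes with 15d-PGJ2 and 27.8% with 15d-PGJ2-PC). Slc25a38 encodes the carrier that brings glycine into mitochondria for the first step of heme synthesis, and its loss causes sideroblastic anaemia in humans. Slc25a38 had 14.1, 14.9 and 12.4 FPKM in the 15d-PGJ2-PC libraries, 14.8, 17.9 and 16.8 FPKM in the 15d-PGJ2 libraries and 6.99, 9.42 and 7.18 FPKM in the controls. All 6 treated libraries lay above the 3 controls. Slc25a38 rose by 0.99 (SE 0.11, adjusted p = 3.78e-05) on the log2 scale with 15d-PGJ2 and 0.75 (SE 0.11, adjusted p = 0.000649) with 15d-PGJ2-PC. The gene lies on GRCm38 chromosome 9, 120110377 to 120126093. It is best known from erythroid cells. The erythroid gene Alas2 was at 0 to 0.09 FPKM in treated libraries and 0 to 0.19 FPKM in controls, and the summed erythroid markers were lower in the treated libraries, as given above. The part of erythroid RNA in the Slc25a38 values was not tested.

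Slc25a12 encodes aralar, an aspartate/glutamate carrier of the malate-aspartate shuttle, which passes reducing equivalents from the cytosol to mitochondria (GRCm38 chromosome 2, 71274270 to 71367781). Slc25a12 had 16.4, 18.5 and 19.5 FPKM in the 15d-PGJ2-PC libraries, 27.7, 24.4 and 25.1 FPKM in the 15d-PGJ2 libraries and 11.3, 13.9 and 14.03 FPKM in the controls. The 3 groups did not overlap, in the same order as for Slc25a33. Slc25a12 rose by 0.93 (SE 0.09, adjusted p = 1.24e-05) on the log2 scale with 15d-PGJ2 and 0.45 (SE 0.09, adjusted p = 0.00454) with 15d-PGJ2-PC. The other aspartate/glutamate carrier gene, Slc25a13 or citrin, was at 1.5 to 2.44 FPKM in all libraries and did not pass in any contrast. Slc25a12 minus Slc25a13 on the log2 scale was 3.24 ± 0.17 with 15d-PGJ2 and 2.20 ± 0.32 in controls (SD, n = 3 each), without overlap (exact permutation p = 0.1, adjusted p = 0.194).

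Slc25a22, a glutamate carrier gene, was the member with the largest fall (GRCm38 chromosome 7, 141429749 to 141437874). Slc25a22 had 10.5, 11.1 and 14.5 FPKM in the 15d-PGJ2-PC libraries, 9.69, 9.15 and 8.88 FPKM in the 15d-PGJ2 libraries and 17.4, 19.1 and 22.3 FPKM in the controls. All treated libraries lay below the controls, and the 15d-PGJ2 libraries lay below those of 15d-PGJ2-PC. It fell with 15d-PGJ2 by 1.00 log2 units (SE 0.12, adjusted p = 4.35e-05) and with 15d-PGJ2-PC by 0.66 (SE 0.12, adjusted p = 0.00171).

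Slc25a44, a carrier gene for branched-chain amino acids, had 14.9, 13.8 and 15.8 FPKM with 15d-PGJ2-PC, 16.8, 15.9 and 16.6 FPKM with 15d-PGJ2 and 12.5, 13.1 and 12.6 FPKM in controls, with all treated libraries higher. It rose by 0.34 (SE 0.06, adjusted p = 0.00111) with 15d-PGJ2 and by 0.21 (SE 0.06, adjusted p = 0.0325) with 15d-PGJ2-PC. The second call was lost with median scaling (adjusted p = 0.0561), the replicate block (0.0508) and the 6 libraries of the contrast alone (0.0578), without control replicates 1, 2 or 3 (0.0903, 0.0509 and 0.0799) and without 15d-PGJ2-PC replicates 1 or 3 (0.0804 and 0.118, range 0.02 to 0.118). Slc25a45 (48.7 to 56.9 FPKM) and the ornithine carrier gene Slc25a15 (1.34 to 1.82 FPKM) did not pass in any contrast, and their libraries overlapped between groups.

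Of the 4 tested carboxylate carrier genes, 3 fell and 1 rose with 15d-PGJ2, beside 47.2% of all tested genes called, and 2 fell with 15d-PGJ2-PC, beside 27.8%. The gene that rose, Slc25a1, had overlapping libraries and lost its call under 7 alternatives, given with its values. Slc25a10 encodes the dicarboxylate carrier, which exchanges malate or succinate for phosphate (GRCm38 chromosome 11, 120491837 to 120501161). Slc25a10 had 36.8, 39.4 and 35.1 FPKM in the 15d-PGJ2-PC libraries, 30.2, 29.1 and 28.4 FPKM in the 15d-PGJ2 libraries and 53.7, 53.8 and 48.4 FPKM in the controls. The groups did not overlap, with 15d-PGJ2 lowest and control highest. It fell by 0.81 log2 units with 15d-PGJ2 (SE 0.06, adjusted p = 1.01e-06) and by 0.48 with 15d-PGJ2-PC (SE 0.06, adjusted p = 0.000147). Its exons overlap the opposite-strand gene model Gm11788 by up to 228 bases.

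Slc25a11 encodes the oxoglutarate/malate carrier, the other carrier of the malate-aspartate shuttle beside aralar and citrin (GRCm38 chromosome 11, 70644019 to 70647531). Slc25a11 had 60.4, 64.4 and 60.4 FPKM in the 15d-PGJ2-PC libraries, 51.6, 52.6 and 52.1 FPKM in the 15d-PGJ2 libraries and 77.8, 73.2 and 73.2 FPKM in the controls. The groups were again apart and in the order of Slc25a10. It fell by 0.51 with 15d-PGJ2 (SE 0.04, adjusted p = 2.85e-06) and by 0.27 with 15d-PGJ2-PC (SE 0.04, adjusted p = 0.000713). The carriers of this shuttle thus differed in direction, with Slc25a12 higher and Slc25a11 lower in every treated library than in any control. Macrophage markers also fell with 15d-PGJ2, 10 of 10 tested (median log2 fold change -0.52), beside 2823 of all 11309 tested genes. With 15d-PGJ2-PC, 6 of 10 fell (median -0.19), beside 1591 of all 11309 tested genes. The part of these markers in the fall of the carriers was not tested.

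Slc25a1 encodes the citrate carrier, which exports citrate for fatty acid and sterol synthesis. Slc25a1 had 38.97, 35.1 and 39.9 FPKM in the 15d-PGJ2-PC libraries, 48.1, 45.4 and 41.98 FPKM in the 15d-PGJ2 libraries and 37.2, 42.1 and 37.9 FPKM in the controls. The 15d-PGJ2 and control libraries overlapped. The log2 fold change was 0.20 (SE 0.07, adjusted p = 0.0334) with 15d-PGJ2 and -0.04 (SE 0.07, adjusted p = 0.727) with 15d-PGJ2-PC. The 15d-PGJ2 call was lost without control replicates 1 or 3 (adjusted p = 0.109 and 0.0934), without 15d-PGJ2 replicates 1 or 2 (0.116 and 0.079), with no filter (0.0573), without the trend (0.0611) and with the replicate block (0.0544, range 0.00821 to 0.116).

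Slc25a35 is grouped with the carboxylate carriers by sequence, and its solute is not well known. Slc25a35 had 1.09, 1.69 and 0.900 FPKM in the 15d-PGJ2-PC libraries, 1.09, 0.800 and 1.19 FPKM in the 15d-PGJ2 libraries and 1.86, 2.27 and 1.88 FPKM in the controls. These rest on about 12 reads per library with 15d-PGJ2-PC, 10 with 15d-PGJ2 and 20 in controls, and every treated library lay below the controls. Slc25a35 fell by 0.57 log2 units with 15d-PGJ2 (SE 0.16, adjusted p = 0.0129), with values of -0.91 and -0.22 at pseudocounts of 0.1 and 5, and the call was lost without 15d-PGJ2 replicate 2 (0.0504, range 0.0077 to 0.0504). With 15d-PGJ2-PC the value was -0.44 (SE 0.16, adjusted p = 0.0615), which passed without the trend (0.0406) or without 15d-PGJ2-PC replicate 2 (0.0222, range 0.0222 to 0.194). Its exons overlap those of the opposite-strand gene Rangrf by up to 258 bases, and Rangrf was at 2.45 to 5.25 FPKM with 15d-PGJ2-PC, 4.39 to 5.66 FPKM with 15d-PGJ2 and 4.39 to 6.39 FPKM in controls.

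Among the 3 tested cofactor carriers, Slc25a26 rose with both compounds and Slc25a51 with 15d-PGJ2-PC (33.3% called with 15d-PGJ2 and 66.7% with 15d-PGJ2-PC, beside 47.2% and 27.8% of all tested genes). Slc25a26 encodes the carrier of S-adenosylmethionine, the methyl donor for mitochondrial RNA and protein methylation (GRCm38 chromosome 6, 94500295 to 94604659). Slc25a26 had 9.80, 11.6 and 11.3 FPKM in the 15d-PGJ2-PC libraries, 10.7, 11.2 and 12.9 FPKM in the 15d-PGJ2 libraries and 6.11, 6.8 and 6.55 FPKM in the controls. All treated libraries lay above the controls, and the treated groups overlapped. Slc25a26 rose by 0.74 (SE 0.09, adjusted p = 5.07e-05) on the log2 scale with 15d-PGJ2 and 0.67 (SE 0.09, adjusted p = 0.000254) with 15d-PGJ2-PC. Its exons overlap Lrig1 on the opposite strand by up to 139 bases, and Lrig1 was at 0.18 to 0.46 FPKM over the 9 libraries.

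Slc25a51, which encodes the mitochondrial NAD carrier, was the only member to pass with 15d-PGJ2-PC against control and not with 15d-PGJ2 (GRCm38 chromosome 4, 45395923 to 45408917). Slc25a51 had 28.5, 29.4 and 28.5 FPKM in the 15d-PGJ2-PC libraries, 24.2, 24.2 and 24.8 FPKM in the 15d-PGJ2 libraries and 23.95, 24.9 and 25.1 FPKM in the controls. The 15d-PGJ2-PC libraries lay above all others, and the 15d-PGJ2 and control libraries overlapped. The log2 fold change was 0.22 (SE 0.04, adjusted p = 0.00441) with 15d-PGJ2-PC and -0.02 (SE 0.04, adjusted p = 0.801) with 15d-PGJ2. Its exons overlap the same-strand gene model Gm25692 by up to 125 bases, and 2.4% of the 50-base stretches of its longest transcript also occur in transcripts of 260 other genes. The folate and FAD carrier gene Slc25a32 had 3.90, 3.91 and 4.23 FPKM with 15d-PGJ2-PC, 4.21, 3.33 and 3.98 FPKM with 15d-PGJ2 and 3.02, 2.98 and 3.66 FPKM in controls. It did not pass with 15d-PGJ2-PC (adjusted p = 0.112), whose libraries lay above the controls, or with 15d-PGJ2 (adjusted p = 0.158).

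None of the 4 iron and glutathione carriers passed in any contrast by limma. The shares of all tested genes called were 47.2% with 15d-PGJ2, 27.8% with 15d-PGJ2-PC and 20.6% between the compounds. An unadjusted p under 0.05 was found for 1 of 4 in each contrast, beside 6053, 4275 and 3697 of all 11309 tested genes. Slc25a37 and Slc25a28 encode mitoferrin 1 and mitoferrin 2, which import iron. Slc25a37 had 20.4, 24.6 and 22.3 FPKM in the 15d-PGJ2-PC libraries, 19.5, 20.6 and 21.2 FPKM in the 15d-PGJ2 libraries and 19.4, 20.7 and 19.8 FPKM in the controls. Slc25a28 had 11.2, 8.57 and 8.72 FPKM in the 15d-PGJ2-PC libraries, 9.27, 9.12 and 8.95 FPKM in the 15d-PGJ2 libraries and 10.5, 10.2 and 10.8 FPKM in the controls. Mitoferrin 1 libraries overlapped between all groups, and mitoferrin 2 was lower in each 15d-PGJ2 library than in any control by a small margin. The log2 fold changes with 15d-PGJ2 were 0.03 (95% interval -0.12 to 0.19, adjusted p = 0.718) and -0.18 (95% interval -0.39 to 0.02, adjusted p = 0.131). Without 15d-PGJ2-PC replicate 1, in which Slc25a28 was high, Slc25a28 passed for 15d-PGJ2 against control (0.0398, range 0.0398 to 0.252). Without that library it also passed for 15d-PGJ2-PC against control (0.03, log2 fold change -0.25, range 0.03 to 0.637), as did Slc25a37 (0.0391, range 0.0391 to 0.37). Slc25a37 shares up to 381 bases of exon with the opposite-strand gene model Gm31748.

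Slc25a39 and Slc25a40 encode the glutathione carriers. Slc25a39 had 96.7, 98.0 and 98.0 FPKM in the 15d-PGJ2-PC libraries, 106, 103 and 102 FPKM in the 15d-PGJ2 libraries and 101, 96.2 and 95.3 FPKM in the controls. Slc25a40 had 2.78, 3.51 and 3.30 FPKM in the 15d-PGJ2-PC libraries, 2.55, 3.87 and 2.72 FPKM in the 15d-PGJ2 libraries and 3.07, 3.41 and 3.54 FPKM in the controls. Slc25a39 was slightly higher in every 15d-PGJ2 library than in any control, with a log2 fold change of 0.09 (95% interval 0.01 to 0.17, adjusted p = 0.0623). It passed with no filter (0.049), with quantile normalization (0.00868) and without control replicate 1 (0.0297, range 0.00868 to 0.158). For Slc25a40 the interval was -0.41 to 0.19 on the log2 scale, at about 46 reads with 15d-PGJ2 and 50 in controls.

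The 5 remaining tested members did not pass in any contrast by limma. Of all tested genes, 47.2% were called with 15d-PGJ2, 27.8% with 15d-PGJ2-PC and 20.6% between the compounds. Slc25a43 had an unadjusted p under 0.05 against control with each compound. Of these 5, Slc25a14 (0.88 to 2.67 FPKM over the 9 libraries), Slc25a27 (0.5 to 1.85 FPKM) and Slc25a30 (6.76 to 10.1 FPKM) are uncoupling protein-like. The others are the outer membrane gene Slc25a46 and Slc25a43. Slc25a43 had 6.79, 2.65 and 4.62 FPKM with 15d-PGJ2-PC, 5.30, 4.51 and 4.13 FPKM with 15d-PGJ2 and 6.25, 7.18 and 7.76 FPKM in controls, so that the 15d-PGJ2 libraries were all below the controls and the 15d-PGJ2-PC libraries spread widely. Its log2 fold change was -0.51 (SE 0.22, adjusted p = 0.081) with 15d-PGJ2. It passed on the 6 libraries of the contrast alone (0.00576) and without 15d-PGJ2-PC replicates 1 or 2 (0.0242 and 0.0128, range 0.00576 to 0.193), and for 15d-PGJ2-PC against control without 15d-PGJ2-PC replicate 1 (0.00823, range 0.00823 to 0.237). Slc25a30 passed without 15d-PGJ2 replicate 1 for 15d-PGJ2 against control (0.0108, range 0.0108 to 0.314) and for 15d-PGJ2-PC against 15d-PGJ2 (0.0364, range 0.0364 to 0.529). Slc25a46, at 11.5 to 13.6 FPKM over the 9 libraries, changed by 0.09 (SE 0.06, adjusted p = 0.271) with 15d-PGJ2.

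The compounds were then compared directly at the same dose and time. The control libraries do not enter this fold change, but they enter the variance estimate behind its SE and p-value. Relative to 15d-PGJ2, Slc25a23, Slc25a10, Slc25a4, Slc25a11 and Slc25a51 were higher with 15d-PGJ2-PC, and Slc25a33, Slc25a12 and Slc25a1 were lower. These 8 of 35 members, 22.9%, stand beside 20.6% of all tested genes, and the 5 higher and 3 lower beside 12.3% and 8.30%. Groups did not overlap for 13 members (37.1%), against 37.3% of all tested genes. The median log2 fold change was 0.05 over the members and 0.02 over all tested genes.

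Slc25a33 showed the largest gap, with 11.4 ± 0.212 FPKM with 15d-PGJ2-PC and 22.2 ± 1.61 FPKM with 15d-PGJ2 (SD, n = 3 each) and a log2 fold change of -0.90 (SE 0.09, adjusted p = 6.74e-05). Slc25a23 followed at 0.59 (SE 0.12, adjusted p = 0.00466) and the aralar gene Slc25a12 at -0.48 (SE 0.09, adjusted p = 0.00409). The Slc25a23 value was 0.92 and 0.23 with pseudocounts of 0.1 and 5. Slc25a10 differed by 0.33 (SE 0.06, adjusted p = 0.00244), Slc25a11 by 0.24 (SE 0.04, adjusted p = 0.00253) and Slc25a51 by 0.23 (SE 0.04, adjusted p = 0.00413). For all of these the 3 libraries of each compound lay apart. The Slc25a4 difference was 0.32 (SE 0.07, adjusted p = 0.012) and was lost without 15d-PGJ2-PC replicate 2 (0.0508, range 0.00141 to 0.0508). The Slc25a1 difference was -0.24 (SE 0.07, adjusted p = 0.0315) and was lost without 15d-PGJ2 replicates 1 or 2 (0.103 and 0.0845), without 15d-PGJ2-PC replicates 1 or 2 (0.0552 and 0.114), with no filter (0.0617), without the trend (0.063) and with the replicate block (0.0549, range 0.0145 to 0.114).

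No difference between the compounds passed for 3 carriers that moved strongly with both. For Slc25a26 it was -0.08 (95% interval -0.28 to 0.12, adjusted p = 0.601), for Slc25a38 -0.24 (-0.50 to 0.01, adjusted p = 0.168) and for Slc25a22 0.34 (0.08 to 0.60, adjusted p = 0.0699). A difference of the size seen for Slc25a33 lies outside each of these intervals, and smaller ones lie within them. Slc25a22 passed without 15d-PGJ2-PC replicate 1 (0.0463, range 0.0463 to 0.199). Slc25a44 (-0.14, -0.28 to 0.00) and Slc25a5 (0.03, -0.06 to 0.12) did not pass either.

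**Figure D4:**
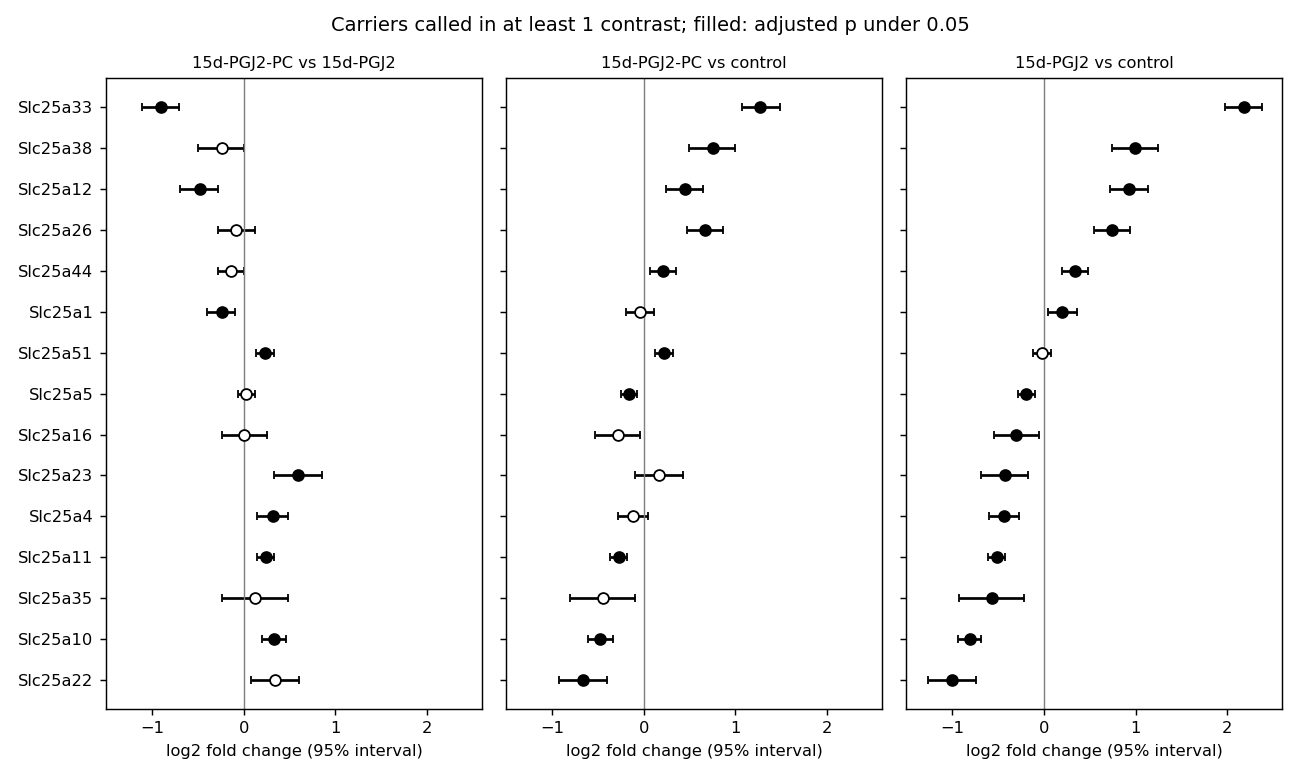
Log2 fold change with 95% interval for the 15 carriers called in at least 1 contrast, in the 3 contrasts from left to right, with filled points where the adjusted p was under 0.05. Slc25a33 lies farthest right against control (1.27 with 15d-PGJ2-PC and 2.18 with 15d-PGJ2) and farthest left for 15d-PGJ2-PC against 15d-PGJ2 (-0.90).

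Ratios between related carriers were formed in each library for 11 pairs with both members tested, with Slc25a23, Slc25a24 and Slc25a25 each in more than 1 pair. For single tested genes, the share without overlap was 37.3% to 55.1% in the 3 contrasts. That share is an unlike measure, since ratios of other gene pairs were not formed. Of the 33 group comparisons of ratios, 17 had no overlap. Each of the 17 had an exact permutation p of 0.1 and an adjusted p of 0.194, so none passed a threshold of 0.05. Slc25a10 minus Slc25a11 was -0.81 ± 0.05 with 15d-PGJ2 and -0.52 ± 0.08 in controls on the log2 scale. Slc25a4 minus Slc25a5 was -1.02 ± 0.10 with 15d-PGJ2-PC, -1.30 ± 0.01 with 15d-PGJ2 and -1.06 ± 0.17 in controls. Mitoferrin 1 minus mitoferrin 2 was 1.16 ± 0.32 with 15d-PGJ2-PC, 1.08 ± 0.08 with 15d-PGJ2 and 0.87 ± 0.08 in controls. The 15d-PGJ2 and control libraries did not overlap, and those of 15d-PGJ2-PC overlapped both (exact permutation p = 0.8 against 15d-PGJ2 and 0.4 against control). The glutathione pair overlapped in every comparison.

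**Figure D5:**
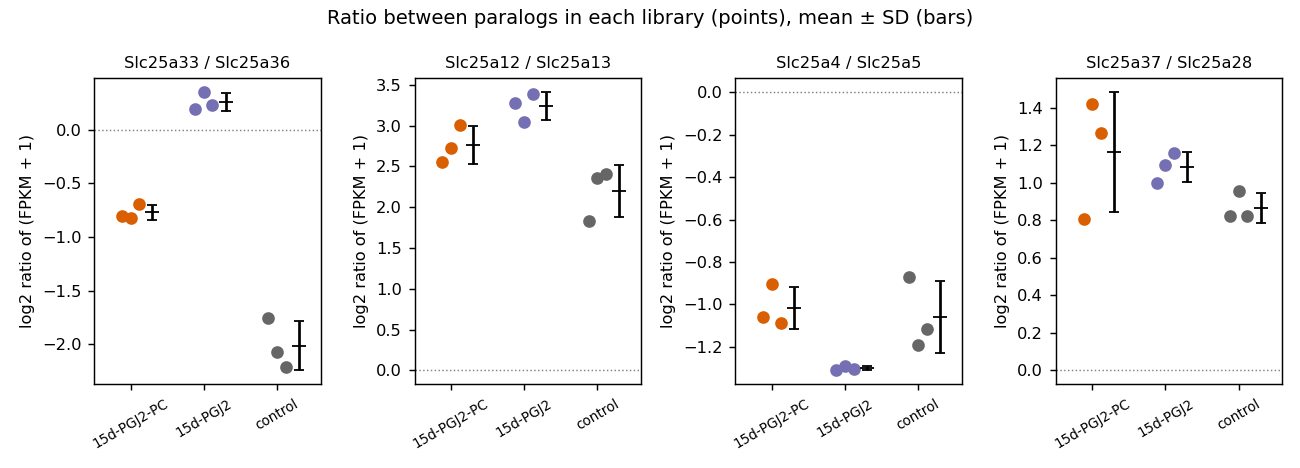
Log2 ratio of (FPKM + 1) between 4 pairs of carriers of the same solute in each library, with groups 15d-PGJ2-PC, 15d-PGJ2 and control from left to right, points for libraries, bars for the mean ± SD of 3 libraries and a dotted line at equal levels. Slc25a33 exceeds Slc25a36 with 15d-PGJ2 (0.26) and lies below it in controls (-2.01), while the mitoferrin ratio stays above 0 in all groups.

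Genes that act with the carriers moved both ways. Of 23 tested enzymes that make or use the carried solutes, 9 rose and 7 fell with 15d-PGJ2 (69.6%, beside 47.2% of all tested genes), and 6 rose and 3 fell with 15d-PGJ2-PC (39.1%, beside 27.8%). Mat2a, which makes the S-adenosylmethionine that Slc25a26 carries, had 56.7, 51.01 and 54.9 FPKM with 15d-PGJ2-PC, 55.4, 55.2 and 55.2 FPKM with 15d-PGJ2 and 35.1, 37.3 and 40 FPKM in controls. Its log2 fold change was 0.55 (SE 0.06, adjusted p = 1.32e-05) with 15d-PGJ2 and 0.52 (SE 0.06, adjusted p = 5.34e-05) with 15d-PGJ2-PC. Alas1 encodes the enzyme that joins glycine to succinyl-CoA at the start of heme synthesis. It had 40.4, 40.6 and 39.8 FPKM with 15d-PGJ2-PC, 52.8, 51.8 and 53.6 FPKM with 15d-PGJ2 and 36.5, 36.7 and 37.4 FPKM in controls. It rose by 0.51 (SE 0.04, adjusted p = 1.39e-06) with 15d-PGJ2 and 0.13 (SE 0.04, adjusted p = 0.0324) with 15d-PGJ2-PC. Coasy, of coenzyme A synthesis, rose by 0.81 and 0.56, and the folate enzyme gene Mthfd2 rose by 0.17 and 0.24 with 15d-PGJ2 and 15d-PGJ2-PC. Bcat2, a branched-chain aminotransferase gene, fell by 0.40 with 15d-PGJ2 and by 0.13 with 15d-PGJ2-PC.

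Among 19 tested genes of other mitochondrial membrane transport, 6 rose and 2 fell with 15d-PGJ2 (42.1%, beside 47.2% of all tested genes) and 4 rose with 15d-PGJ2-PC (21.1%, beside 27.8%). Abcb6, a porphyrin transporter gene, had 10.7, 9.69 and 10.9 FPKM with 15d-PGJ2-PC, 20.0, 18.8 and 19.5 FPKM with 15d-PGJ2 and 4.14, 3.82 and 4.60 FPKM in controls. Its groups lay apart in the order of Slc25a33, with log2 fold changes of 1.98 (SE 0.08, adjusted p = 1.05e-08) and 1.14 (SE 0.08, adjusted p = 2.32e-06) with 15d-PGJ2 and 15d-PGJ2-PC. The sideroflexin gene Sfxn5 rose by 0.50 with 15d-PGJ2 and 0.35 with 15d-PGJ2-PC, and the outer membrane channel gene Vdac3 by 0.30 and 0.17. Vdac2 fell by 0.21 with 15d-PGJ2 and did not pass with 15d-PGJ2-PC (0.01).

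Carriers reach the inner membrane through Tom70 and the small Tim chaperones. Of 14 tested genes of this import path, 4 rose and 1 fell with 15d-PGJ2 (35.7%, beside 47.2% of all tested genes), and 2 rose and 1 fell with 15d-PGJ2-PC (21.4%, beside 27.8%). Tomm70a, the receptor gene, had 24.8, 25.5 and 25.9 FPKM with 15d-PGJ2-PC, 26.7, 27.1 and 26.4 FPKM with 15d-PGJ2 and 20.0, 19.8 and 18.2 FPKM in controls, and Tomm20 had 25.2, 24 and 25.1 FPKM with 15d-PGJ2-PC, 28.6, 26.3 and 25.5 FPKM with 15d-PGJ2 and 20.96, 19.7 and 18.3 FPKM in controls. Both rose with each compound, by 0.45 and 0.43 with 15d-PGJ2 and by 0.38 and 0.32 with 15d-PGJ2-PC. The small Tim gene Timm10b had 32.3, 33.5 and 33.4 FPKM with 15d-PGJ2-PC, 25.99, 22.6 and 24.3 FPKM with 15d-PGJ2 and 37.2, 39.5 and 36.7 FPKM in controls. It fell by 0.62 with 15d-PGJ2 and 0.19 with 15d-PGJ2-PC.

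SLC25 genes outside the set gave 4 tested genes (Ucp2, Mtch1, Mtch2 and Slc25a20), none called in any contrast by limma. Of all tested genes, 47.2% were called with 15d-PGJ2, 27.8% with 15d-PGJ2-PC and 20.6% between the compounds. An unadjusted p under 0.05 was found for 0 of 4 with 15d-PGJ2 and between the compounds, beside 6053 and 3697 of all 11309 tested genes. With 15d-PGJ2-PC against control it was found for 1 of 4, beside 4275 of all tested genes. The uncoupling protein gene Ucp2, at 638, 619.8 and 606 FPKM with 15d-PGJ2-PC, 614, 586 and 581 FPKM with 15d-PGJ2 and 637, 638 and 599 FPKM in controls, stood above every member of the set in every library. Mtch1 had the smallest p with 15d-PGJ2-PC, with a log2 fold change of -0.14 (SE 0.05, adjusted p = 0.0519). Slc25a20, left out by the rule, was at 20.8 to 26.7 FPKM with 15d-PGJ2-PC, 22.1 to 25.2 FPKM with 15d-PGJ2 and 19.1 to 23.8 FPKM in controls and did not pass. Of 8 tested regulators of mitochondrial biogenesis, 1 rose and 1 fell with 15d-PGJ2, beside 47.2% of all tested genes called. These were Pprc1, which rose by 0.28, and Esrra, which fell by 0.22. With 15d-PGJ2-PC only Esrra passed, 1 of 8, and fell by 0.20, beside 27.8% of all tested genes called.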

How the data were processed

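The authors deposited 1 table of FPKM values (fragments scaled to transcript length and library size), per the file headers, for 18049 genes in 9 libraries. Alignment with BWA to mm10 comes from the submitters' processing notes. The tool that made the gene values is not given in the sources used here. Values were used as deposited, and 23 symbols that a spreadsheet had turned into dates were restored from the Entrez number. Coordinates and promoters are RefSeq's (GRCm38.p6, the assembly of mm10), and lengths are those of GENCODE transcripts.

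The 11309 genes that reached 1 FPKM in 3 or more libraries were tested on log2(FPKM + 1), which understates changes of low genes, with limma 3.58.1 in R 4.3.3 (2-sided, intensity trend, 1 variance per gene over 9 libraries, no covariate), tested on simulated data first. P-values were adjusted over all tested genes of a contrast. The filter, the pseudocount, the scaling and the trend were varied, as was the set of libraries. Read numbers per gene are estimates from FPKM, length and the step of 1 read. Intervals are at 95%.

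Members, lists and tests were chosen with earlier results of these data known. Values in every library are given for up to 8 called members per contrast with the largest changes and no overlap, the 4 most abundant members, and both mitoferrin and glutathione carrier genes. Other genes are the up to 3 with the smallest p per list and contrast, or were named after their values were seen. The values of 1 member are not reported here, though it is in the counts.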

Additional observations from a re-analysis of the deposited data

How the results depend on the processing

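The 32 calls of single members over the 3 contrasts were recomputed under 18 alternatives each, or 17 where a filter removed the gene. Of 573 values, 534 kept direction and call and 39, from 7 calls, kept direction but lost the call, and none changed direction. Of the values of contrasts that were not called, 22 of 1287 passed under an alternative. With 15d-PGJ2, 8 members fell, but 5 with a filter of 5 FPKM, which takes Slc25a35 and Slc25a23 out of the test and leaves Slc25a16 at an adjusted p of 0.0517. Without a replicate, the members that rose numbered 5 to 6 and those that fell 6 to 11 with 15d-PGJ2, 5 to 6 and 3 to 6 with 15d-PGJ2-PC, and 4 to 6 and 2 to 3 between the compounds. All tested genes called without a replicate numbered 4732 to 5291 with 15d-PGJ2, 2576 to 3144 with 15d-PGJ2-PC and 1791 to 2373 between the compounds. Of 342 ratios between paralogs, 20, all from comparisons with overlap, changed sign. No pairing of samples was used, since same-numbered libraries deviated together at correlations of -0.043 to 0.052. With the replicate block, 5 members rose and 7 fell with 15d-PGJ2, 5 rose and 4 fell with 15d-PGJ2-PC, and 5 were higher and 2 lower between the compounds, and Slc25a1 and Slc25a16 with 15d-PGJ2, Slc25a44 with 15d-PGJ2-PC and Slc25a1 between the compounds lost their calls. Under each scaling tried, the median of all genes lay within 0.03 of 0 on the log2 scale. Depth limits the 11 untested members and low ones such as Slc25a35, at about 10 to 20 reads a library.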

Other observations

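Spread within groups was near counting noise for most carriers. Over 105 pairs of a tested member and a group, the coefficient of variation had a median of 0.96 times that of counting alone, and 9 pairs exceeded 2 times. The widest was Slc25a4 in controls, with a coefficient of variation of 11.9% where its 1132 reads per library would give 2.97%. Slc25a43 with 15d-PGJ2-PC varied by 44.2%, against 18.8% from its 28 reads, and Slc25a22 with 15d-PGJ2-PC by 18%, against 7.56% from 175 reads.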
